A study of Mus musculus with 42 samples.

Results

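The genes described here are 10 genes of the lipid droplet coat and of its lipolysis, out of 54446 genes counted in the liver. They were chosen by name and not by their measured values, although earlier results of these data were known when the list was made. They are 4 perilipins (Plin2, Plin3, Plin4 and Plin5), 3 CIDE genes (Cidea, Cideb and Cidec), the triglyceride lipase Pnpla2 (adipose triglyceride lipase) with its inhibitor G0s2, and the droplet enzyme Hsd17b13. All 10 passed the filter on low counts, Cidea only through the mice fed a Western-type diet (WTD).

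A lipid droplet is a core of triglycerides and cholesteryl esters under a single layer of phospholipids. Perilipins coat that surface and control which lipases reach the core, CIDE proteins sit where droplets touch and help lipid pass from small droplets to larger ones, and Pnpla2 starts the breakdown of triglycerides. In hepatocytes Plin2 is the usual coat protein, and an excess of droplets marks fatty liver. The authors describe the fatty change in this model and diet as mainly microvesicular and due to cholesteryl esters, without raised liver triglycerides.

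Liver RNA was sequenced from 42 female APOE*3-Leiden mice, with 1 library per mouse. These mice carry a human APOE variant as a transgene and develop raised plasma lipids on WTD. Of these, 10 mice were kept on maintenance chow, 16 received WTD and 16 received WTD with atorvastatin, a statin that inhibits cholesterol synthesis, and all livers were taken at week 32. Both WTD groups started at 8 to 14 weeks of age with a run-in of 3 weeks on a diet holding 15% cocoa butter, 40.5% sucrose and 1% cholesterol by weight, and both had 0.05% sodium cholate added from week 22. Atorvastatin was mixed into the food at 3.0 mg/kg/day and raised to 4.5 mg/kg/day at week 5. The age of the chow-fed mice and the promoter of the transgene are not given in the sources used here. The chow-fed mice carry another prefix in their mouse numbers than both WTD groups, so anything tied to that prefix cannot be told apart from the diet, nor can the fat, sucrose, cholesterol and cholate of the diet be told apart from each other.

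The libraries held from 15661381 to 36224054 read pairs assigned to genes. Scaling factors of the libraries (TMM) ran from 0.844 to 0.921 on chow, 0.915 to 1.22 on WTD and 0.890 to 1.11 with atorvastatin. Levels and differences between groups rest on this scaling, and no fit on plain library totals was run. In 9 libraries (3 chow, 5 WTD, 1 atorvastatin) more than 20% of the genes expressed at 1 to 2 CPM (counts scaled to the size of the library) in their own group had no count. A 0 of a weak gene there thus says little. Values without these libraries are given for Plin4, Cidec, Cideb and Pnpla2. For Plin3, Plin5 and G0s2 only whether the calls against chow held without them is stated, in a closing section. Groups were compared with the quasi-likelihood test of edgeR over 15574 genes, and a gene was called where its p, adjusted after Benjamini and Hochberg, lay under 0.01. The 9 hepatocyte markers measured were all present in every group. Their summed level ran from 124773 to 179355 CPM on chow, from 60185 to 117078 on WTD and from 69595 to 141112 with atorvastatin. Over the same mice the summed level of 9 macrophage markers was 378 to 565 CPM on chow, 2314 to 4261 on WTD and 1709 to 3007 with atorvastatin, and that of 8 stellate cell markers was 362 to 618, 1015 to 2174 and 933 to 2043 CPM. The part of these shifts in the results below was not tested, and in whole liver fewer cells of a type and less RNA per cell cannot be told apart. The 7 white adipocyte markers, which would show adhering fat, summed to 12.1 to 37.6 CPM on chow, 3.49 to 17.2 on WTD and 1.59 to 30.0 with atorvastatin. Nearly all of this was Adrb3, with means of 21.1, 10.6 and 13.6 CPM. The others were weak. Cfd had 192, 47 and 9 counts over the chow, WTD and atorvastatin groups, Retn 35, 19 and 0, and Aqp7 12, 90 and 58. Plin1 had 28, 0 and 1, Adipoq 0, 7 and 1, and Lep no count in any mouse. All chow counts of Plin1 and Retn were in chow mouse 1, where Cfd reached 10.3 CPM beside a group mean of 1.12. The same mouse had the highest Plin4 of the chow group (19.9 CPM) and 2.44 CPM of Cidec. Whether adhering fat added to these levels was not tested.

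Cidea, without a count on chow, had to differ once it passed the filter, so it is left out of the counts that follow and described by its counts alone. Of the other 9 genes 6 were called in WTD-fed mice against chow. Plin3, Plin4 and Cidec were higher and Plin5, Cideb and G0s2 were lower, while Plin2, Pnpla2 and Hsd17b13 did not pass the test. Over all tested genes 33.5% were called in this comparison, 17.5% as higher and 16% as lower. With atorvastatin against WTD only Plin4 was called, as lower, where 7.1% of all genes were called (4.84% higher, 2.26% lower). Between atorvastatin-treated and chow-fed mice 4 of the 9 were called, Plin3 as higher and Plin5, Cideb and G0s2 as lower, beside 25% of all genes (14.2% higher, 10.7% lower). The median log2 fold change of these 9 genes was 0.049 (Hsd17b13), -0.063 (G0s2) and 0.13 (Plin2) in these comparisons. Over all tested genes the medians were 0.027, 0.0016 and 0.042. The 3 comparisons share groups and are not independent of each other.

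**Figure D1:**
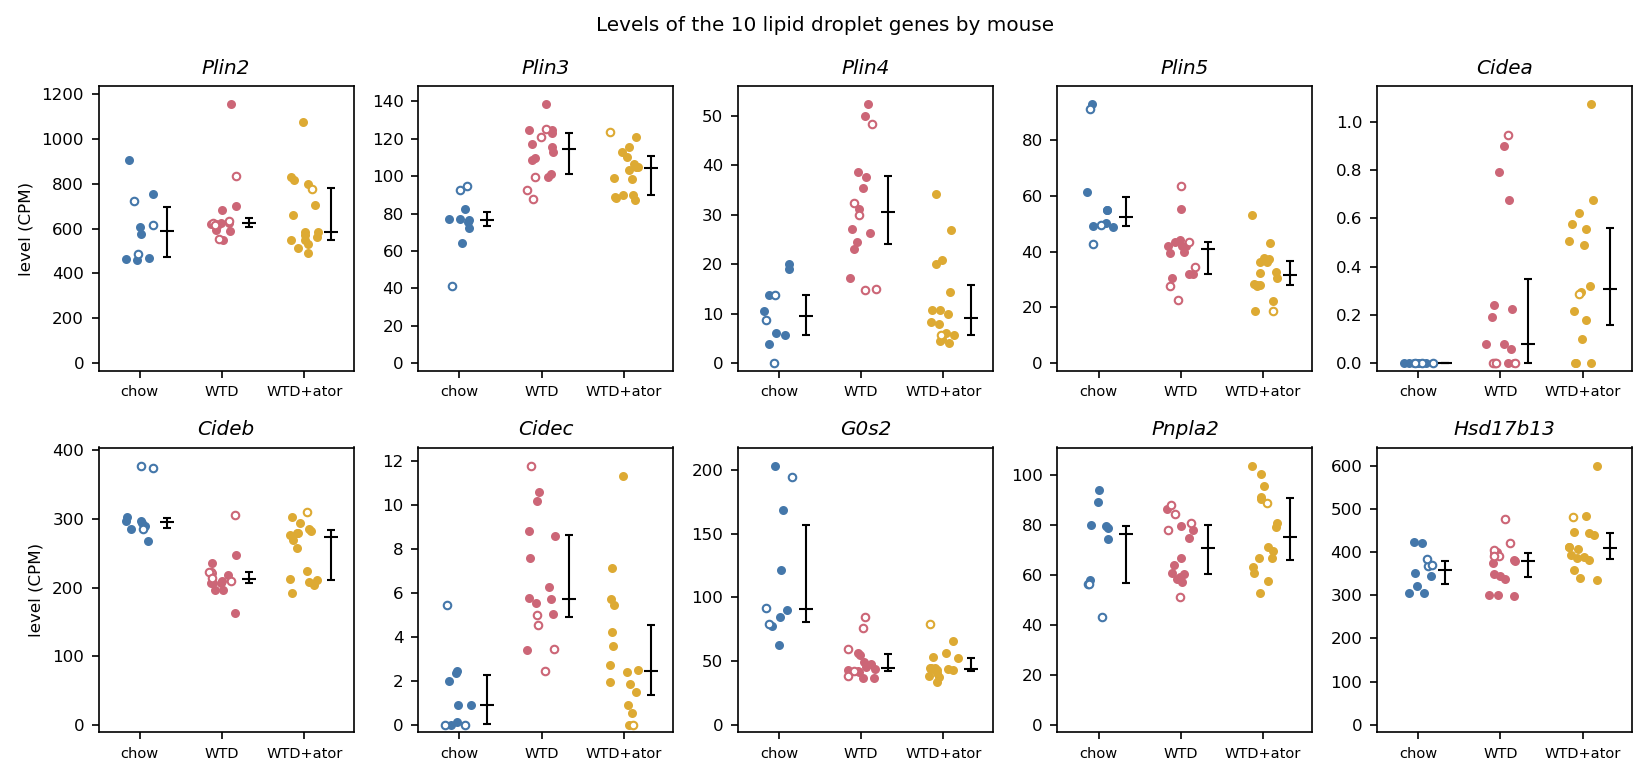
Level of each gene in CPM (vertical axes, linear) in each mouse of the chow, WTD and WTD with atorvastatin (WTD+ator) groups. Each point is 1 mouse, open points are the 9 libraries that missed more than 20% of weakly expressed genes, and black marks give the median with the quartiles; Plin4 and Cidec are high on WTD and G0s2 is low in both WTD groups.

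Per kilobase of exon, the genes fell into a strong and a weak set in all groups. On chow Cideb had 206 ± 25.3 CPM per kilobase (SD, n = 10), Plin2 173 ± 42.7, Hsd17b13 167 ± 19.7 and G0s2 135 ± 59.9, and these neighbours lay within about their spread of each other. Plin5 (28.5 ± 8.53), Pnpla2 (23.5 ± 5.48) and Plin3 (19.9 ± 3.97) followed, again close together. Plin4 (1.75 ± 1.13) and Cidec (0.762 ± 0.929) were far lower, and Cidea had no count. On WTD the order per kilobase was Plin2, Hsd17b13, Cideb, G0s2, Plin3, Pnpla2, Plin5, Plin4, Cidec and Cidea. G0s2 was then at 57.2 ± 15.7 CPM per kilobase (n = 16), well below Cideb at 146 ± 20.2, and Plin3 at 29.8 ± 3.63 stood above Plin5 at 19.0 ± 4.85. With atorvastatin the order was that of WTD, except that Hsd17b13 (195 ± 30.3) and Plin2 (189 ± 45.5) changed places within their spread.

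Plin2, the main perilipin of hepatocytes (chr4:86648386-86670060, minus strand, GRCm38), ran from 459 to 908 CPM on chow with a median of 592. On WTD it ran from 551 to 1155 CPM with a median of 623, and with atorvastatin from 491 to 1078 with a median of 584. The groups overlapped almost completely, and 1 WTD-fed mouse and 1 atorvastatin-treated mouse stood high. The comparison with chow rests on the scaling of the libraries, whose factors were mostly lower on chow than on WTD. The log2 fold change was 0.13 ± 0.12 (SE) for WTD against chow (edgeR adjusted p = 0.38), with a 95% interval of the fold from 0.928 to 1.30, and -0.0046 ± 0.10 for atorvastatin against WTD (adjusted p = 0.99, interval of the fold 0.861 to 1.15). The promoter window of Plin2 from RefSeq (GRCm38.p6, chr4:86670010-86670309, minus strand, 250 bases before to 50 after the start) is shown because it alone among the windows of these genes held 2 different searched motifs. Capitals mark the nuclear receptor core site AGGTCA, here read on the other strand as TGACCT, and the E-box CACGTG, which the glucose-responsive factor ChREBP and the clock factors can bind as part of longer sites.

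Plin2: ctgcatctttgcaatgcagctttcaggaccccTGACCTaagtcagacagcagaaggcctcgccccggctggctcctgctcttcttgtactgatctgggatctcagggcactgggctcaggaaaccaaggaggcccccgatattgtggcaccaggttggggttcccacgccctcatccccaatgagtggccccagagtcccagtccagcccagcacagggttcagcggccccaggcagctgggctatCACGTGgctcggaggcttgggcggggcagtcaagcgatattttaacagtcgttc

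Plin3, a perilipin found in most cell types (chr17:56277476-56292873, minus strand), ran from 41.1 to 95.0 CPM on chow with a median of 76.7. On WTD it ran from 87.9 to 139 CPM with a median of 114, and with atorvastatin from 87.5 to 124 with a median of 104. All 32 mice of the WTD groups were above the chow median, and 14 of 16 WTD-fed mice were above every chow-fed mouse. Plin3 was 1.49-fold higher on WTD than on chow (log2 fold change 0.58 ± 0.087, edgeR adjusted p = 2.0e-07). Atorvastatin-treated mice remained 1.36-fold above chow (0.45 ± 0.087, adjusted p = 4.0e-05), and their difference from WTD was -0.13 ± 0.075 (adjusted p = 0.29), while limma-voom called it at -0.19 (adjusted p = 0.0051).

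Plin4 (chr17:56100591-56109803, minus strand), a perilipin best known from fat cells and muscle, changed in both directions. On chow it ran from 0 to 19.9 CPM with a median of 9.58. On WTD it ran from 14.8 to 52.3 CPM with a median of 30.5, and with atorvastatin from 4.09 to 34.1 with a median of 9.19. The chow and the WTD groups overlapped only between 14.8 and 19.9 CPM, and 12 of 16 atorvastatin-treated mice lay below every WTD-fed mouse. The single 0, on chow, was in 1 of the 9 libraries that missed weak genes. Plin4 was 3.10-fold higher on WTD than on chow (log2 fold change 1.63 ± 0.40, edgeR adjusted p = 0.00087) and 2.58-fold lower with atorvastatin than on WTD (-1.37 ± 0.33, adjusted p = 0.0041). Without the 9 libraries these were 1.56 (adjusted p = 0.0022) and -1.38 (adjusted p = 0.0022). Between atorvastatin and chow the log2 fold change was 0.27 ± 0.38 (adjusted p = 0.63), with an interval of the fold from 0.704 to 2.06.

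Plin5 (chr17:56111601-56117596, minus strand), which lies next to Plin4 on the chromosome and ties droplets to mitochondria in oxidative tissues, moved the other way. It ran from 42.7 to 92.9 CPM on chow with a median of 52.6. On WTD it ran from 22.7 to 63.4 CPM with a median of 40.9, and with atorvastatin from 18.6 to 53.0 with a median of 31.5. The groups overlapped, but 14 of 16 atorvastatin-treated mice were below every chow-fed mouse. The mean of Plin5 fell by 33.4% on WTD against chow (log2 fold change -0.59 ± 0.15, edgeR adjusted p = 0.00083) and 1.87-fold lower with atorvastatin than on chow (-0.90 ± 0.15, adjusted p = 2.1e-06). The difference between the WTD groups, -0.31 ± 0.13, did not pass the test (adjusted p = 0.11). The promoter windows of the neighbours Plin4 (chr17:56109733-56110032) and Plin5 (chr17:56117499-56117798), both on the minus strand of GRCm38.p6, are shown since these genes differed in opposite directions on WTD. Capitals mark AGGTCA, which occurs in the window of Plin5, and none of the searched motifs occurred in that of Plin4.

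Plin4: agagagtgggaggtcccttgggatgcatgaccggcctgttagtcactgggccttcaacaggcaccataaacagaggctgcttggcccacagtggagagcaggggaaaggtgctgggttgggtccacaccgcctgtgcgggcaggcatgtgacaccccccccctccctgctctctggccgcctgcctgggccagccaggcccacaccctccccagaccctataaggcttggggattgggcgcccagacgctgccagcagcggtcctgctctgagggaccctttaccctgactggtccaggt
Plin5: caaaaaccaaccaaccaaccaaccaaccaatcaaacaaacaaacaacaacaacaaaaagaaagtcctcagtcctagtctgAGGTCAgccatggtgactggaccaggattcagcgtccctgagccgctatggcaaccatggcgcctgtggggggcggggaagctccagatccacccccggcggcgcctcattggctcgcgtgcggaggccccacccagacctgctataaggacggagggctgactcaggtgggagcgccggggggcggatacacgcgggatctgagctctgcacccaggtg

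Plin2 made up most of the perilipin transcripts in every mouse. Its share of the summed perilipin level per kilobase was 73.9% to 82.2% on chow, 73.2% to 84.9% on WTD and 77.0% to 86.1% with atorvastatin. The share of Plin5 had its median at 13.2% on chow, 7.72% on WTD and 6.51% with atorvastatin, and that of Plin3 a median of 9.92%, 12.9% and 12.0%. Plin4 was a small part throughout, with a median share of 0.784%, 2.30% and 0.734%. These shares are descriptions without a test.

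**Figure D2:**
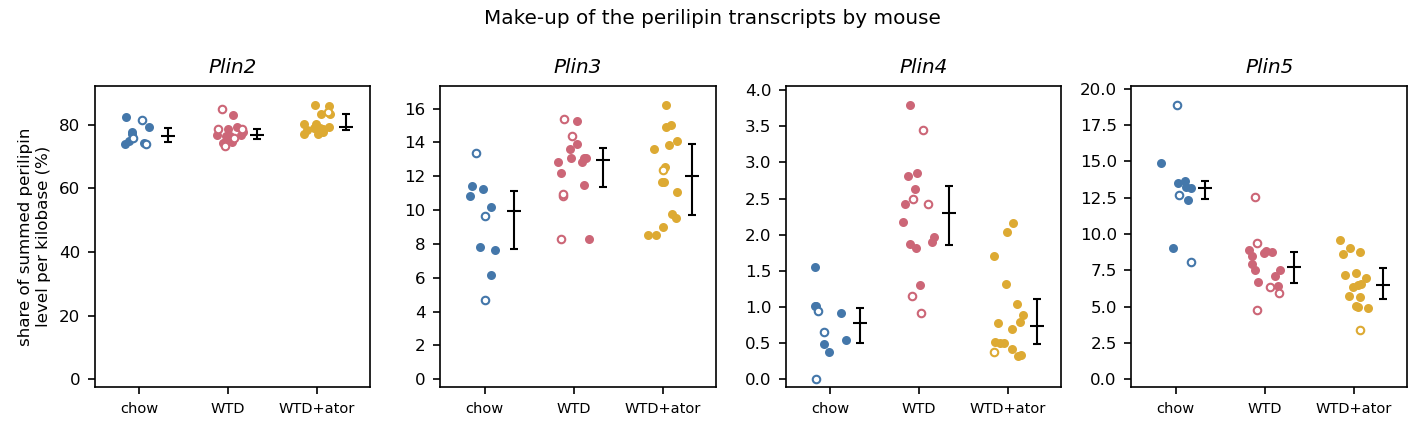
Share of each perilipin in the summed level of Plin2, Plin3, Plin4 and Plin5 per kilobase of exon (vertical axes, percent, with a scale of their own) by mouse and group. Points are mice, open points the 9 libraries that missed weak genes, and black marks the median with the quartiles; the median share of Plin5 is 13.2% on chow and 7.72% on WTD.

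Cidec (chr6:113424634-113435760, minus strand), which drives the growth of large droplets and is a textbook gene of fatty liver, was weak in these livers. It ran from 0 to 5.44 CPM on chow with a median of 0.903, with no count in 3 mice, 2 of them among the libraries that missed weak genes. On WTD it ran from 2.45 to 11.8 CPM with a median of 5.73, and with atorvastatin from 0 to 11.3 with a median of 2.43. All 16 WTD-fed mice were above the chow median and 14 of 16 atorvastatin-treated mice were below the WTD median, though each pair of groups overlapped. On WTD Cidec was 4.63-fold above chow (log2 fold change 2.21 ± 0.67, edgeR adjusted p = 0.0060). This call was lost without chow mouse 8, 9 or 10, when the adjusted p was 0.012, 0.011 and 0.011, and it held without the 9 libraries (adjusted p = 0.0018). The difference between atorvastatin and WTD, -1.01 ± 0.53, did not pass the test (adjusted p = 0.24), while limma-voom with sample quality weights called it at -1.59 (adjusted p = 0.0014). Atorvastatin against chow gave 1.20 ± 0.64 (adjusted p = 0.15).

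Cidea (chr18:67343604-67367785, plus strand), known from brown fat and from fatty livers, was near the limit of detection. No chow-fed mouse had a count, against 10 of 16 WTD-fed mice and 13 of 16 atorvastatin-treated mice. The highest mouse had 23 counts on WTD and 27 with atorvastatin, and the median was 2.5 and 7.5 counts. The pooled level of Cidea was 16.6-fold on WTD (97 counts in all) and 26.1-fold with atorvastatin (135 counts) of a floor of 3 counts over the whole chow group. That floor covers counting error on chow only and not the spread between mice, so these folds are not lower bounds. WTD mice 4, 12, 13 and 16 held 17, 23, 14 and 22 of the 97 counts. No p is given, since Cidea passed the filter only through the WTD groups, and with only the chow group and either WTD group in the fit it did not pass. Of the 6 WTD-fed mice without a count, 4 were in libraries that missed weak genes, and the 7 other chow libraries also had none. Of the 4 brown fat markers, Ucp1 had 1 count on WTD and none in the other groups. Over the chow, WTD and atorvastatin groups, Cox7a1 had 384, 446 and 322 counts, Elovl3 935, 153 and 482, and Cox8b 153, 24 and 2. All chow counts of Cox8b were in chow mouse 1, which had no count of Cidea.

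Cideb (chr14:55754050-55758458, minus strand), the CIDE gene of hepatocytes with a part in the lipid loading of very low density lipoprotein, was by far the strongest of the 3. It ran from 268 to 378 CPM on chow with a median of 295, from 163 to 305 on WTD with a median of 212, and from 192 to 310 with atorvastatin with a median of 273. Of the WTD-fed mice 15 of 16 were below every chow-fed mouse. On WTD Cideb was 1.41-fold below chow (log2 fold change -0.50 ± 0.081, edgeR adjusted p = 1.1e-06). The 2 highest chow-fed mice (375 and 378 CPM) and the highest WTD-fed mouse were in libraries that missed weak genes, and without the 9 libraries the log2 fold change was -0.47 (adjusted p = 1.9e-05).

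With atorvastatin, Cideb lay between the other groups. Of these mice 10 had between 258 and 310 CPM and the other 6 between 192 and 224, with none between. The same 10 had scaling factors (TMM) from 0.890 to 0.980 and the same 6 from 1.02 to 1.11. Whether the gap in Cideb comes from the scaling was not tested. The difference from WTD was 0.23 ± 0.072 (edgeR adjusted p = 0.023), above the threshold of 0.01. It was called without the 9 libraries (0.27, adjusted p = 0.0078), with their share of missed genes as a covariate (0.29, adjusted p = 0.0053), with limma-voom (0.31, adjusted p = 2.9e-05), without WTD mouse 15 (0.27, adjusted p = 0.0029) and without atorvastatin mouse 7 (0.26, adjusted p = 0.0091). The difference from chow, -0.27 ± 0.082 (adjusted p = 0.0085), was called in 30 of 42 fits with a mouse left out. It was lost, with an adjusted p of 0.010 to 0.028, without chow mouse 1, 2, 3, 5, 7 or 10 or atorvastatin mouse 1, 2, 3, 4, 7 or 15, without the 9 libraries (-0.20, adjusted p = 0.046), with their share of missed genes as a covariate (-0.19, adjusted p = 0.074), with limma-voom (-0.17, adjusted p = 0.055) and without a filter on low counts (-0.25, adjusted p = 0.017). Exons of Cideb overlap those of Nop9 on the other strand over 76.3% of their length. Counts here were strand-specific, since 26.3% of protein-coding genes inside another gene on the opposite strand had no count in any mouse, against 99.2% of those on the same strand.

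In sum per kilobase the 3 CIDE genes were almost wholly Cideb, with a median share of 99.8% on chow, 97.7% on WTD and 99.3% with atorvastatin. The median share of Cidec was 0.247%, 2.01% and 0.678%. The median of the summed level was 199 CPM per kilobase on chow, 146 on WTD and 185 with atorvastatin.

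G0s2 (chr1:193272161-193273217, minus strand), the protein inhibitor of the lipase Pnpla2, showed the largest fall of these genes on WTD. It ran from 62.7 to 204 CPM on chow with a median of 91.1, from 36.4 to 84.5 on WTD with a median of 44.2, and from 33.3 to 79.2 with atorvastatin with a median of 44.0. In each WTD group 14 of 16 mice were below every chow-fed mouse, and the chow group itself was wide, with 3 mice between 169 and 204 CPM. G0s2 was 2.36-fold lower on WTD than on chow (log2 fold change -1.24 ± 0.16, edgeR adjusted p = 2.2e-08) and 2.46-fold lower with atorvastatin than on chow (-1.30 ± 0.16, adjusted p = 1.5e-08). The WTD groups differed by -0.063 ± 0.15 (adjusted p = 0.86), with an interval of the fold from 0.781 to 1.17. The promoter windows of G0s2 (chr1:193273139-193273438) and Cidec (chr6:113435711-113436010), both on the minus strand of GRCm38.p6, are shown because these genes had the largest called fall and rise on WTD among members with counts on chow, and neither held a searched motif, so nothing is in capitals.

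G0s2: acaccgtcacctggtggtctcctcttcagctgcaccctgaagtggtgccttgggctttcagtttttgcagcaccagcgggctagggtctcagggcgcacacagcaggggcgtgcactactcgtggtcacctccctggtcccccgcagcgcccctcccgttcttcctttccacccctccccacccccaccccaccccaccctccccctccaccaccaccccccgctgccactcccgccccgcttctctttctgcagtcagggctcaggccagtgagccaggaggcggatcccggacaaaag
Cidec: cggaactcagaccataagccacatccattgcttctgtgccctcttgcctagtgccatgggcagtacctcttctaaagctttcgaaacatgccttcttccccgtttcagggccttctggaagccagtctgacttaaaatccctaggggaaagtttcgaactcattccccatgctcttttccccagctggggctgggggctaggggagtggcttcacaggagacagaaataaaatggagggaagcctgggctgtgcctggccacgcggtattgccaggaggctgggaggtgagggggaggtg

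Pnpla2 (chr7:141455198-141460743, plus strand) did not pass the test in any comparison. It ran from 43.1 to 94.1 CPM on chow with a median of 76.5, from 51.2 to 87.9 on WTD with a median of 70.6, and from 52.8 to 104 with atorvastatin with a median of 75.3, and the groups overlapped over nearly their whole range. The log2 fold change was -0.010 ± 0.11 for WTD against chow (edgeR adjusted p = 0.95, interval of the fold 0.850 to 1.16) and 0.14 ± 0.098 for atorvastatin against WTD (adjusted p = 0.44, interval of the fold 0.958 to 1.26). Without the 9 libraries the log2 fold change for WTD against chow was -0.22 (adjusted p = 0.12), and with their share of missed genes as a covariate it was -0.0072 (adjusted p = 0.96). Within the chow group Pnpla2 went down with that share (rho = -0.84, permutation p = 0.0034, adjusted p = 0.11; r = -0.65, permutation p = 0.038, adjusted p = 0.27; r = -0.87 without the 2 mice farthest in the share). Per kilobase, Pnpla2 stood to its inhibitor G0s2 at a ratio whose median was 0.194 on chow, 0.405 on WTD and 0.468 with atorvastatin. The ratio ran from 0.0837 to 0.433 on chow and from 0.300 to 0.586 on WTD, and it is given as a description.

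Within the groups Pnpla2 varied with the circadian clock genes. A clock score, the leading principal component of 14 clock genes centred on the group means, was high where Arntl was high and Dbp was low. Pnpla2 fell with this score over the 16 WTD-fed mice (Pearson r = -0.83, permutation p = 9.0e-05, adjusted p = 0.0078 over 87 relations; Spearman rho = -0.80, permutation p = 0.00032, adjusted p = 0.028). Without the 2 mice farthest in the score r was -0.81, and without the libraries that missed weak genes it was -0.73. In the atorvastatin group r was -0.75 (permutation p = 0.0014, adjusted p = 0.046) and rho -0.69 (permutation p = 0.0039, adjusted p = 0.11), with r = -0.72 without the 2 farthest mice. G0s2 also fell with the score on WTD by Pearson r (-0.72, permutation p = 0.0016, adjusted p = 0.046) but not by rank after adjustment (rho = -0.66, permutation p = 0.0064, adjusted p = 0.14), and r was -0.61 without the 2 farthest mice. On chow the r of Pnpla2 was -0.48 (permutation p = 0.16, adjusted p = 0.44; rho = -0.60, permutation p = 0.073), and -0.11 without the 2 farthest mice. The r of Pnpla2 with the log2 library total was 0.58 on WTD (permutation p = 0.015, adjusted p = 0.21; rho = 0.62, permutation p = 0.012, adjusted p = 0.21) and 0.21 with atorvastatin (permutation p = 0.44, adjusted p = 0.72). With the clock score as a covariate, none of the calls in the 3 comparisons changed. Since the score is centred on the group means, this fit cannot tell whether clock differences between the groups play a part.

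Hsd17b13 (chr5:103955440-103977410, minus strand), a hepatocyte enzyme that sits on droplets, was strong in every group. It ran from 304 to 424 CPM on chow with a median of 359, from 299 to 476 on WTD with a median of 380, and from 335 to 601 with atorvastatin with a median of 409. WTD against chow gave a log2 fold change of 0.049 ± 0.080 (edgeR adjusted p = 0.66, interval of the fold 0.925 to 1.16). Atorvastatin gave 0.18 ± 0.070 against WTD (adjusted p = 0.095) and 0.22 ± 0.081 against chow (adjusted p = 0.026). The last was called with the share of missed weak genes as a covariate (0.29, adjusted p = 0.0042).

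**Figure D3:**
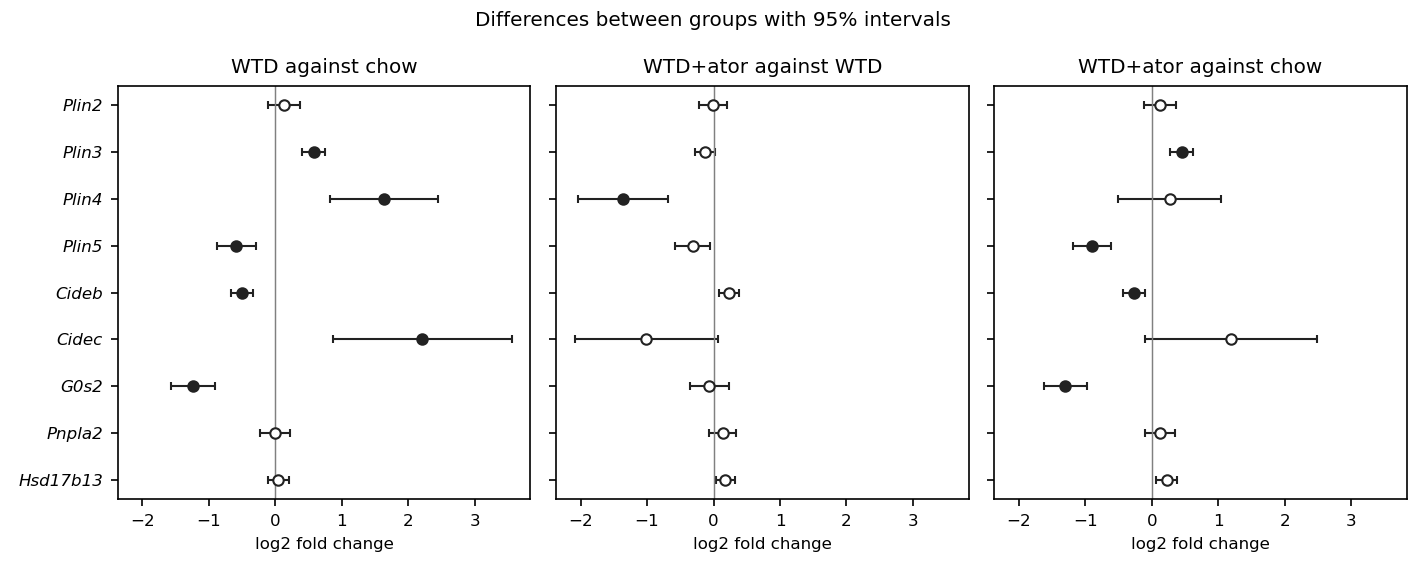
Log2 fold change (horizontal axes) of each gene in the 3 comparisons, with 95% intervals of the edgeR fit. Filled points were called at an adjusted p under 0.01 and open points were not; Cidea is left out because no chow-fed mouse had a count. With atorvastatin against WTD, Plin4 is the only filled point.

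Across the promoter windows, 11 windows of 9 genes matched by symbol. The nuclear receptor core site AGGTCA on either strand occurred in 4 of them, belonging to Plin2, Plin5 (both windows) and Hsd17b13, and in 16.3% of all 32851 windows of the same length. The E-box CACGTG occurred in 1 window, that of Plin2, and in 7.15% of all windows. The direct repeat AGGTCANAGGTCA, which PPAR binds with RXR, occurred in no member window, also with up to 1 mismatch in each AGGTCA (0.0396% and 2.40% of all windows). Nor did the repeat with 4 bases between, bound by LXR (0.0152% of all windows), or the sterol response site TCACNCCAC (1.24%). All were searched on both strands, the repeats contain the core site, and no match says only that these letters are not in this window. The Cidea window is not shown here.

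Pairs of these genes were compared over the mice within each group, 126 pairs in all. No pair had an adjusted p under 0.05 by permutation of Pearson's r or of Spearman's rho, while 11 had an unadjusted p under 0.05. The smallest p by Pearson's r was that of Plin5 with Cidec on WTD (r = 0.78, permutation p = 0.00040, adjusted p = 0.050; rho = 0.68, permutation p = 0.0051, adjusted p = 0.19; r = 0.60 without the 2 mice farthest in Plin5). The smallest p by rank was that of the lipase Pnpla2 with its inhibitor G0s2 on WTD (rho = 0.78, permutation p = 0.00063, adjusted p = 0.052; r = 0.70, permutation p = 0.0017, adjusted p = 0.054; r = 0.61 without the 2 mice farthest in G0s2). Plin5 with G0s2 on chow had the highest r, 0.86 (permutation p = 0.0012, adjusted p = 0.054; rho = 0.70, permutation p = 0.030, adjusted p = 0.35; r = 0.63 without the 2 farthest mice). Plin4 with Cidec had rho = 0.76 (permutation p = 0.00083, adjusted p = 0.052) and r = 0.64 (permutation p = 0.0077, adjusted p = 0.14) with atorvastatin, and r = 0.51 without the 2 mice farthest in Plin4. The 4 atorvastatin-treated mice with the most Plin4, from 20.0 to 34.1 CPM, were all among the 6 with the least Cideb. Those 6 also had the highest scaling factors of their group. The overlap of the 4 with the 6 was seen after the values were known. Plin4 with Cideb did not pass the adjustment (r = -0.65, permutation p = 0.0078, adjusted p = 0.14, and rho = -0.49, permutation p = 0.055, adjusted p = 0.47, with r = -0.54 without the 2 farthest mice).

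**Figure D4:**
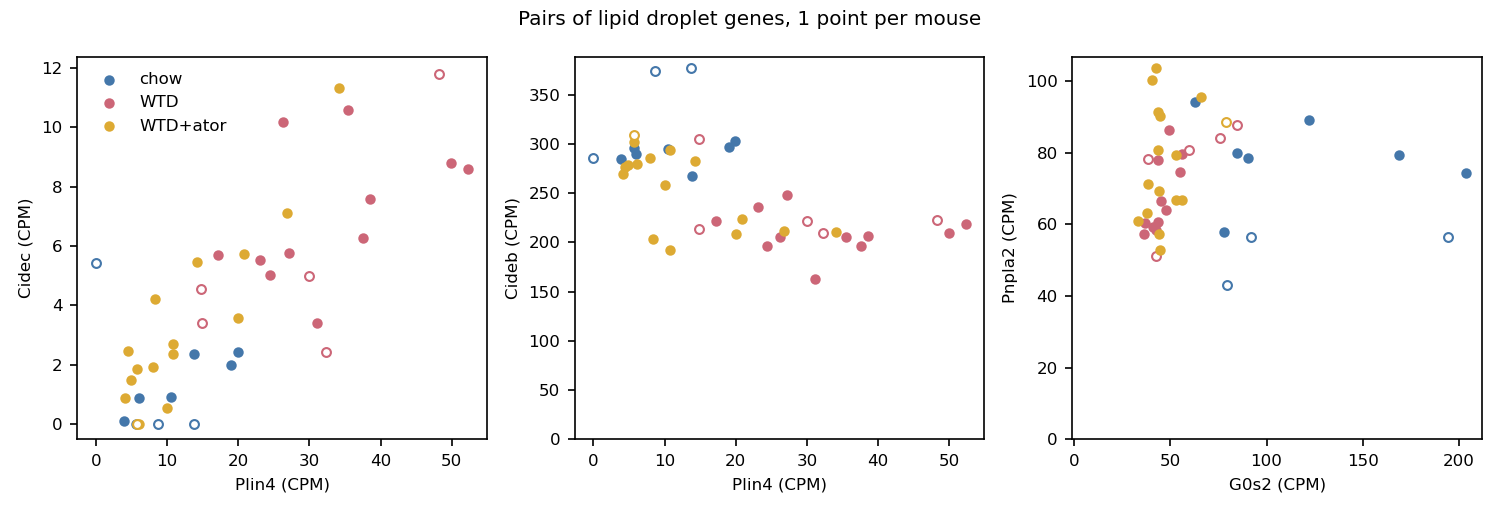
Levels in CPM of Cidec and Cideb against Plin4, and of Pnpla2 against G0s2, with 1 point per mouse coloured by group and open points for the 9 libraries that missed weak genes. On WTD, Plin4 and Cidec reach their highest levels of 52.3 and 11.8 CPM in different mice, and G0s2 separates most chow-fed mice (up to 204 CPM) from both WTD groups.

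Over all 42 mice, with each gene centred on its group means, the genes whose pattern was most like each member's were found among at least 13643 genes with a mean of at least 1 CPM, as a description. For Plin2 they were Pex11a (r = 0.79) and Fitm2 (r = 0.76), for Plin3 Rgmb (0.75) and Zfp748 (0.74), for Plin4 Rragd (0.80) and Hacd4 (0.79), and for Plin5 Fam89a (0.64) and Ppp1r1b (0.64). Cideb was nearest to Adh1 (0.87) and Gamt (0.86), Cidec to Clip2 (0.73) and Il17rd (0.73), and Cidea to Stk39 (0.61) and Myo1d (0.58). G0s2 was nearest to Slc25a20 (0.63) and Retsat (0.60), Pnpla2 to Coq10b (0.73) and Npc1 (0.70), and Hsd17b13 to Rida (0.68) and Aldh1b1 (0.67). These r share the libraries and their depth.

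Among the other neutral lipid hydrolases and their cofactors, 14 genes tested, 7 were lower and 1 was higher on WTD than on chow, beside 16% lower and 17.5% higher over all genes, with a median log2 fold change of -0.33 beside 0.027. The carboxylesterase Ces1f fell from 474 ± 46.4 CPM (SD, n = 10) to 149 ± 65.3 (n = 16), a log2 fold change of -1.67 ± 0.15 (edgeR adjusted p = 3.0e-12). The monoacylglycerol lipase Abhd6 (-1.07 ± 0.12, adjusted p = 1.7e-10) and the esterase Aadac (-0.78 ± 0.10, adjusted p = 5.7e-09) fell too. Lipa, the acid lipase of lysosomes, was the gene that rose (0.41 ± 0.058, adjusted p = 3.4e-08). With atorvastatin against WTD 5 rose and 0 fell (4.84% and 2.26% over all genes; median 0.22, beside 0.0016), although 9 of the 14 did not pass. Aadac was higher by 0.53 ± 0.090 (adjusted p = 5.0e-05), Ces1f by 0.74 ± 0.14 (adjusted p = 0.00022) and the Pnpla2 relative Pnpla3, a target of SREBP1c, by 1.92 ± 0.41 (adjusted p = 0.0012), from 12.4 ± 7.71 to 47.0 ± 36.0 CPM. Ces1f is one of several closely related genes, between which reads may be split unevenly. Against chow, atorvastatin-treated mice had 2 higher and 5 lower (14.2% and 10.7% over all genes), with Lipa at 0.50 ± 0.058 (adjusted p = 6.7e-10), Abhd6 at -0.92 ± 0.12 (adjusted p = 1.7e-08) and Pnpla3 at 3.35 ± 0.54 (adjusted p = 3.8e-06).

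Of 13 tested genes of droplet formation and neutral lipid esterification, 2 were higher and 2 lower on WTD than on chow (median log2 fold change -0.18), near the 17.5% higher and 16% lower over all genes. Soat1, which esterifies cholesterol and is strong in macrophages, rose from 5.45 ± 2.36 to 30.0 ± 7.61 CPM (log2 fold change 2.47 ± 0.19, edgeR adjusted p = 1.1e-15). The seipin gene Bscl2 (log2 fold change -0.36 ± 0.079, adjusted p = 0.00020) and Dgat2, which makes triglycerides (-0.51 ± 0.11, adjusted p = 0.00022), were lower. Atorvastatin against WTD gave 2 higher and 0 lower (4.84% and 2.26% over all genes) with a median of 0.11, namely Soat2, the cholesterol esterifying enzyme of hepatocytes (0.39 ± 0.086, adjusted p = 0.0011), and Dgat2 (0.44 ± 0.10, adjusted p = 0.0021), while Pcyt1a did not pass (0.22 ± 0.068, adjusted p = 0.020). Against chow, where 25% of all genes were called, only Soat1 was called with atorvastatin (2.25 ± 0.19, adjusted p = 4.6e-14), beside Fitm1 at -0.80 ± 0.28 (adjusted p = 0.021) and Tmem159 at 0.95 ± 0.35 (adjusted p = 0.031), which did not pass.

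Among 16 tested genes of other droplet proteins, 2 were higher and 6 lower on WTD (median log2 fold change -0.00053), beside 17.5% and 16% over all genes. The phospholipid enzyme Lpcat2 rose by 2.12 ± 0.16 (edgeR adjusted p = 1.8e-16), and the sterol synthesis enzyme Hsd17b7 and the retinol dehydrogenase Rdh11 fell by 2.25 and 1.98 on the log2 scale (adjusted p = 8.1e-12 and 7.9e-11). With atorvastatin against WTD 3 were higher and 0 lower, beside 4.84% and 2.26% over all genes, namely Rdh11 (1.10 ± 0.18, adjusted p = 6.2e-05), Hsd17b7 (1.02 ± 0.19, adjusted p = 0.00024) and Mettl7a1 (0.26 ± 0.067, adjusted p = 0.0047). Against chow 1 was higher with atorvastatin, Lpcat2 (1.79 ± 0.15, adjusted p = 7.6e-14), and 6 were lower (14.2% and 10.7% over all genes), among them Dhrs3 (-0.52 ± 0.079, adjusted p = 3.7e-07) and Hsd17b7 (-1.23 ± 0.21, adjusted p = 8.7e-06).

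Of the 14 tested transcription regulators with known lipid droplet targets, 3 were higher and 7 lower on WTD than on chow (median log2 fold change -0.33), beside 17.5% and 16% over all genes. The bile acid receptor Nr1h4 (-0.84 ± 0.098, edgeR adjusted p = 3.0e-10), the ChREBP gene Mlxipl (-1.04 ± 0.13, adjusted p = 3.7e-09) and the CAR gene Nr1i3 (-1.46 ± 0.18, adjusted p = 1.3e-08) had the smallest p. With atorvastatin against WTD, Hnf4a (0.33 ± 0.068, adjusted p = 0.00064) and Mlxipl (0.56 ± 0.12, adjusted p = 0.00069) were higher and 0 were lower (4.84% and 2.26% over all genes), with a median of 0.28, while Rxra did not pass (0.26 ± 0.076, adjusted p = 0.014). Against chow 3 were higher and 4 lower with atorvastatin (14.2% and 10.7% over all genes), led by Srebf1 (1.41 ± 0.17, adjusted p = 6.7e-09), Creb3l3 (-0.71 ± 0.11, adjusted p = 6.9e-07) and Nr1h4 (-0.55 ± 0.098, adjusted p = 1.1e-05).

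**Figure D5:**
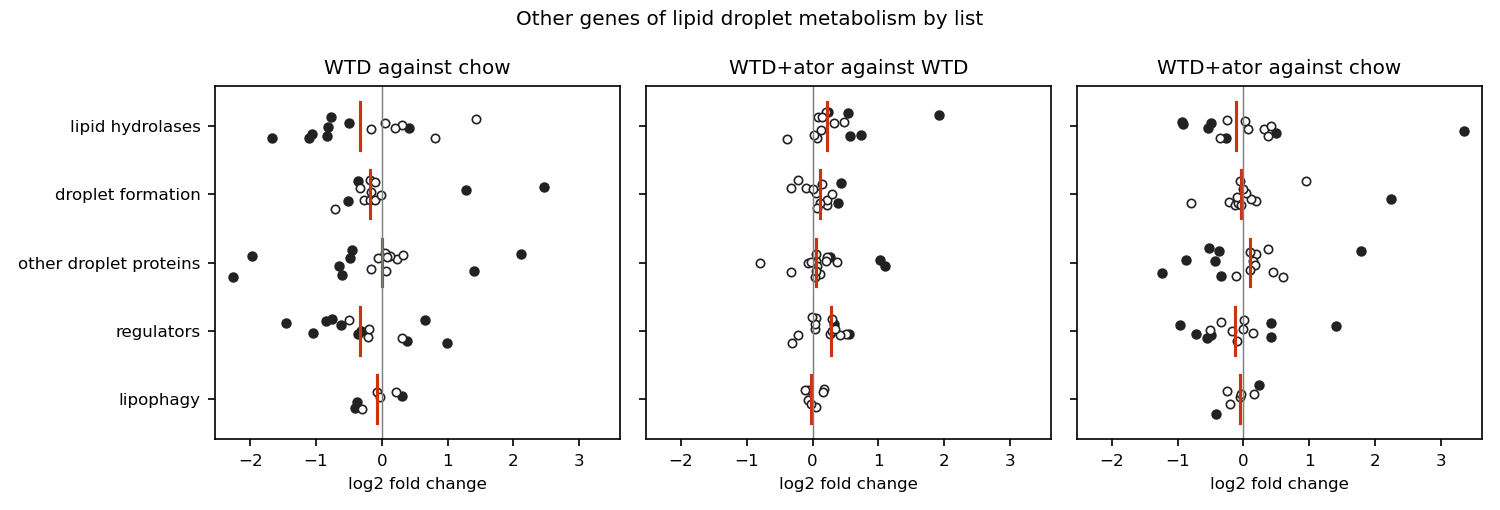
Log2 fold change (horizontal axes) of the tested genes of 5 lists outside the 10 genes, in the 3 comparisons. Filled points were called at an adjusted p under 0.01, open points were not, and red bars are the medians of the lists; 7 of 14 lipid hydrolases are filled and below 0 for WTD against chow.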

How the data were processed

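Strand-specific libraries of polyadenylated liver RNA were sequenced as read pairs. The authors trimmed them with Trimmomatic, aligned them to GRCm38 (GENCODE vM19) using STAR 2.5, obtained gene counts from HTSeq-count 0.6.1p1 and deposited these counts without normalization or filtering for 54446 genes. Symbols and positions came from GENCODE vM21 of GRCm38. Promoter sequences came from RefSeq.

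Genes passing filterByExpr (minimum count 10, minimum total 15) entered 1 robust quasi-likelihood model of all 42 mice (edgeR 4.0.16, R 4.3.3, TMM scaling, no covariate because the labels name no batch), and Benjamini-Hochberg adjustment ran over its 15574 genes. CPM use TMM-scaled library sizes. Intervals and floors cover counting error or the spread between mice only. Relations within groups used log2 CPM (prior count 2) and two-sided permutation tests with 100000 permutations in scipy 1.17.1.

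The 10 genes, the lists and the markers were chosen with earlier results of these data known, and the relations with the clock score, depth and missed genes after their values were seen. The named genes are the 10 members, the 3 with the smallest p of each list and comparison, and the 2 nearest patterns of each member. Alternatives were DESeq2 1.42.0, limma-voom (limma 3.58.1) with sample quality weights, other scalings, filters and thresholds, covariates, and fits without the 9 libraries or without each mouse.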

Additional observations from a re-analysis of the deposited data

Results flagged for a closer look

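Dixon's ratio of gap to range was applied to the chow group, since the form used here covers groups of at most 10 samples. Cidec was 5.44 CPM (85 counts) in chow mouse 6, where the next mouse had 2.44 CPM. The gap was 0.551 of the range of the group, above the critical value of the test for 10 samples at the 95% level. Chance flags about 1 in 20 groups, and 9 genes were tested in this way. The same library missed 24.4% of weakly expressed genes, and it was the only one of the 42 without a count of Plin4. Whether the missed genes and the high value are connected was not tested.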

How the results depend on the processing

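With Cidea included, 7, 1 and 5 genes were called for WTD against chow, atorvastatin against WTD and atorvastatin against chow. When each mouse was left out, the count stayed at 6 or 7 for WTD against chow and at 4 or 5 for atorvastatin against chow. For atorvastatin against WTD it was 1 or 2. Cidea, which had to differ from chow, was called in all 42 fits of both comparisons with chow and says nothing about stability. For WTD against chow, Cidec was called in 39 of the 42, and Plin3, Plin4, Plin5, Cideb and G0s2 in all. For atorvastatin against chow, Cideb was called in 30, and Plin3, Plin5 and G0s2 in all. Asking for 10 counts in every mouse, which leaves out Plin4, Cidea and Cidec, gave 4 for WTD against chow and 0 for atorvastatin against WTD. Over all 9973 genes then tested, 4183 and 1160 were called. A log2 fold change of at least 1 in addition gave 4 for WTD against chow and 2 for atorvastatin against chow, with Cidea among both. Over all 15574 genes it gave 2151 and 1288. For atorvastatin against WTD limma-voom gave 4, and the fit without the 9 libraries, the one with their missed share as a covariate and an adjusted p under 0.05 each gave 2. It was 2 without WTD mouse 15 and without atorvastatin mouse 7. The other alternatives stayed within 1.5 times. The calls of Plin3, Plin5 and G0s2 in both comparisons with chow held in all 12 alternative fits, the one without the 9 libraries among them.

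The direction turned only for differences near 0 that were not called. Pnpla2 for WTD against chow was 0.031 with DESeq2, 0.031 with RLE, 0.045 with 10 counts in every mouse and 0.0067 with only the 2 groups compared, and -0.072 to 0.044 without each mouse. Without the 9 libraries Hsd17b13 was -0.0086 for WTD against chow, Pnpla2 was -0.044 for atorvastatin against chow and G0s2 was 0.014 for atorvastatin against WTD, where it was 0.051 with the covariate and -0.13 to 0.0052 without each mouse. Plin2 for atorvastatin against WTD was 0.052 with limma-voom, 0.0024 without a filter, and -0.071 to 0.068 without each mouse. The causes were not tested.

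By counts in place of counts per kilobase, the median share of Plin2 on chow was 80.4% rather than 76.4%. No pair of genes passed in any of the 3 alternatives for pairs. Over all genes, 5224, 1106 and 3893 were called in the 3 comparisons. With the added fold change it was 2151, 100 and 1288, and for atorvastatin against WTD it was 3118 with limma-voom, 2021 at an adjusted p under 0.05 and 1664 without the 9 libraries.

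No paired analysis was possible because the mouse numbers of the chow and WTD groups carry different prefixes and each names a different animal, so that no number is shared between 2 groups. Without statement of cage or litter, p values measure the spread between mice. Weak genes such as Cidea and Cidec are limited by depth and by the 9 libraries.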

Other observations

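Genes of lipophagy, the breakdown of droplets in lysosomes, and of the chaperone-mediated removal of perilipins were also tested. Of 7 tested genes 1 was higher and 2 were lower on WTD than on chow, where 17.5% and 16% of all genes were called, with a median log2 fold change of -0.079 beside 0.027 over all genes. The lysosomal membrane gene Lamp2 was lower (-0.38 ± 0.064, edgeR adjusted p = 2.1e-06), as was the autophagy gene Atg5 (-0.40 ± 0.11, adjusted p = 0.0015), and Rab7, a small GTPase of late endosomes, was higher (0.31 ± 0.057, adjusted p = 1.2e-05). With atorvastatin against WTD none of the 7 was called by edgeR and 1 had an unadjusted p under 0.05, with Lamp2 at 0.18 ± 0.057 (adjusted p = 0.029), Atg5 at 0.15 ± 0.095 (adjusted p = 0.34) and Rab7 at -0.076 ± 0.050 (adjusted p = 0.37). Against chow, Rab7 was higher with atorvastatin (0.23 ± 0.057, adjusted p = 0.0010) and the chaperone gene Hspa8 lower (-0.42 ± 0.11, adjusted p = 0.0016), while Lamp2 did not pass (-0.20 ± 0.064, adjusted p = 0.011).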
